A study of Drosophila melanogaster with 6 samples.

Results

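Cytochromes P450 are heme enzymes that insert 1 atom of oxygen into a substrate. Those of the Cyp6 family sit in the endoplasmic reticulum and draw electrons from a reductase and, for some reactions, from cytochrome b5. Insects carry many P450s. Cyp6 members are best known for the breakdown of insecticides and plant toxins in the midgut, the Malpighian tubules and the fat body. The genes described here are the 10 Cyp6 genes of *Drosophila melanogaster* that lie outside the Cyp6a subfamily: Cyp6d2, Cyp6d4, Cyp6d5, Cyp6g1, Cyp6g2, Cyp6t1, Cyp6t3, Cyp6u1, Cyp6v1 and Cyp6w1. They were picked by gene symbol from the platform annotation, which pairs each with 1 probe set (a group of oligonucleotides that together interrogate a transcript), and they are 10 of the 11952 genes that the annotation pairs with a probe set of their own. A further probe set that shn and Cyp6v1 share was not used.

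METH-treated flies were w1118 virgin males 5 days old that fed for 24 h on fly food containing 0.6% (w/v) methamphetamine (METH). Control flies were virgin males of the same strain and age that fed for 24 h on the food without the drug. RNA was taken from whole bodies, 20 flies per sample, and 3 samples per diet, described as biological replicates, were each hybridized to an Affymetrix array. The labels call the food of both groups blue diet. In RNA from whole flies, fewer cells of a type and less RNA per cell cannot be told apart. Signals are given as deposited and as a percentage of the signal of an actin probe set of the same array, the reference that the study's methods name. Because probe sets differ in how brightly they respond to their transcript, signals are compared between diets for 1 gene and not between genes. The exception is the sums of tissue markers given below, in which the brightest probe sets weigh most.

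In limma, with a threshold of 0.05 on the adjusted p, 5 of the 10 genes rose in METH-treated flies, 0 fell and 5 did not pass. The background is 0.842% of all 18769 probe sets higher and 0.416% lower. The group was chosen with earlier results of these data known, so its contrast with the background is not independent of them. Before adjustment, 6 of the genes had a p under 0.05 with a higher value and 0 with a lower one, where 9.38% of all probe sets did so upward and 2.12% downward. The study states a pair of cuts, one in its results and one in its methods. The methods' t-test put 5 of the genes higher at the first of these, p below 0.008 with a change over 1.5-fold (background 1.25%). At the second, p of at most 0.005 and at least 1.5-fold, it called 4 (background 0.922%), without Cyp6d2. After Benjamini-Hochberg adjustment of the methods' t-test 0 of the genes passed 0.05. The 5 genes that rose in limma were Cyp6w1, all 3 measured genes of the Cyp6d subfamily and Cyp6g1. The median log2 fold change of the 10 genes was 0.75, against 0.24 for all probe sets.

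Cyp6w1 had the largest rise of the group. This gene is known for high transcript levels in DDT-resistant strains and for its induction in adults by caffeine and phenobarbital. Its deposited signal was 4018, 3414 and 3776 on the METH arrays, against 488, 347 and 351 on the control arrays. The lowest METH array was thus far above the highest control array. Relative to actin it averaged 472 ± 73.8% in METH-treated flies and 37.8 ± 2.24% in control flies (SD, n = 3 each). The log2 fold change was 3.63 (standard error 0.17, adjusted p = 4.8e-08), a 12.4-fold difference with a 95% confidence interval of 9.61 to 16.0. Among all 18769 probe sets, Cyp6w1 ranked 6 by p and 12 by the size of the rise. This ranking describes the arrays as measured and was not itself tested.

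Every measured gene of the Cyp6d subfamily passed as higher in limma with the actin reference. When limma's spread was not allowed to follow the level, only Cyp6d4 of them passed (adjusted p = 0.0468). The adjusted p in limma was then 0.13 for Cyp6d5 and 0.231 for Cyp6d2. Cyp6d1 of the house fly, another species, is a known cause of pyrethroid resistance. Sequence from the arrays' own probes was not analysed here, but the study designed a primer pair against the Cyp6d4 transcript for qRT-PCR, and it is shown to identify the transcript of a gene that passed under every setting of limma tried, printed 5′ to 3′ with no part in capitals:
Cyp6d4 L primer: atcccgagacctatgatccc
Cyp6d4 R primer: gatgatggccagtttggagt
Each primer is 20 bases long, and the gene lies on chromosome arm 3R. The qRT-PCR values themselves were not analysed here.

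Cyp6d4 had deposited signals of 507, 551 and 484 on the METH arrays, against 229, 175 and 213 on the control arrays. Relative to actin these were 61.0, 63.5 and 69.1% in METH-treated flies, against 18.8, 19.0 and 21.6% in control flies. The arrays of each diet lay close together on this scale, with a coefficient of variation (SD over mean) of 6.48% on the METH arrays and 8.06% on the control arrays, and the diets did not overlap. The log2 fold change was 1.71 (standard error 0.16, adjusted p = 3.9e-05), or 3.26-fold with an interval of 2.59 to 4.11.

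Cyp6d5, which caffeine and phenobarbital are known to induce in adult flies, had deposited signals of 5486, 6571 and 5894 on the METH arrays, against 2421, 2966 and 2781 on the control arrays. The diets did not overlap. Relative to actin it averaged 753 ± 91.1% in METH-treated flies and 268 ± 62.7% in control flies (SD, n = 3 each), and the log2 fold change was 1.51 (standard error 0.22, adjusted p = 0.00242). Cyp6d2, a gene known to be needed for resistance to the topoisomerase poison camptothecin, had deposited signals of 341, 462 and 447 on the METH arrays, against 307, 181 and 240.0 on the control arrays. The lowest METH array and the highest control array were therefore near each other. Relative to actin the gene averaged 52.7 ± 11.4% in METH-treated flies and 23.1 ± 3.0% in control flies, and its log2 fold change was 1.17 (standard error 0.19, adjusted p = 0.00495). With the signals as deposited, the fold change of Cyp6d2 was 0.80 on the log2 scale and its adjusted p in limma was 0.0688, so that its call was lost.

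Cyp6g1 and Cyp6g2 are neighbours in the genome whose annotated extents overlap, and of this pair only Cyp6g1 passed the test. Cyp6g1 is known as the gene whose overexpression confers resistance to DDT and to neonicotinoids such as imidacloprid. Its deposited signal was 3738, 3857 and 3985 on the METH arrays, against 2259, 2348 and 2495 on the control arrays. The diets did not overlap, and the coefficient of variation of these signals was 3.19% on the METH arrays and 5.04% on the control arrays. Relative to actin, Cyp6g1 averaged 488 ± 70.7% in METH-treated flies and 231 ± 39.6% in control flies (SD, n = 3 each), and its coefficient of variation was 14.5% on the METH arrays and 17.1% on the control arrays. The reference thus added to the spread of Cyp6g1. The log2 fold change was 1.08 (standard error 0.20, adjusted p = 0.015), or 2.12-fold with an interval of 1.56 to 2.87. Its adjusted p in limma was 0.0541 without METH replicate 1, 0.0657 without control replicate 1 and 0.0702 without control replicate 3.

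Cyp6g2, whose forced expression is known to raise survival on some insecticides, did not pass. Its deposited signal was 66.0, 84.0 and 71.7 on the METH arrays, against 92.8, 96.1 and 108 on the control arrays, so that every METH array was below every control array. Relative to actin the signals were 7.93, 9.67 and 10.2% in METH-treated flies, against 7.62, 10.4 and 11.0% in control flies, and the diets overlapped. The log2 fold change was -0.05 with the actin reference (standard error 0.23, adjusted p = 0.927) and -0.43 with the signals as deposited. Its interval with the actin reference spans 0.687- to 1.36-fold.

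**Figure D1:**
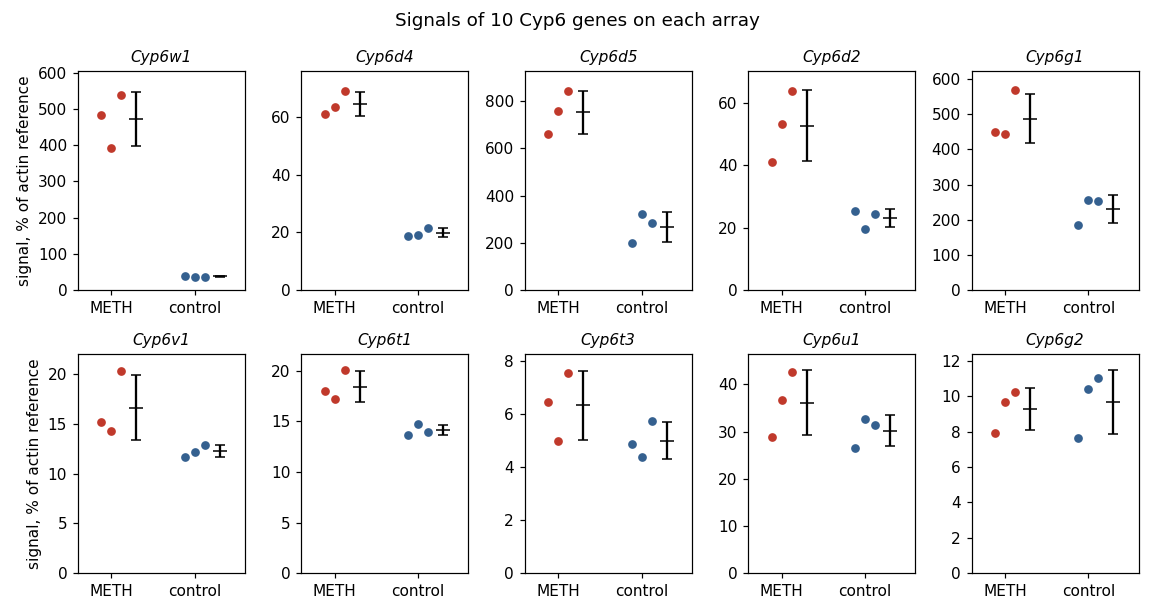
Signal of each gene on each array as a percentage of the actin reference (y axis, linear, from 0), with METH arrays left and control arrays right; points are arrays, and the bar beside them is the mean with the SD of 3 arrays. Cyp6w1 averages 472% on the METH arrays and 37.8% on the control arrays, while the arrays of Cyp6t3, Cyp6u1 and Cyp6g2 overlap.

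The other 4 genes did not pass the test either. Cyp6t1 had deposited signals of 149.9, 149.5 and 140.5 on the METH arrays, against 167, 135 and 138 on the control arrays. These overlapped. Relative to actin, 18.0, 17.2 and 20.1% in METH-treated flies stood above 13.7, 14.7 and 14.0% in control flies, and the log2 fold change was 0.38 (standard error 0.17, adjusted p = 0.433). Cyp6v1 had a similar course, with 15.2, 14.3 and 20.3% of actin in METH-treated flies, against 11.7, 12.2 and 12.9% in control flies, and its log2 fold change was 0.42 (standard error 0.20, adjusted p = 0.435). For both genes the diets were apart relative to actin and overlapped in the deposited signals, where the log2 fold changes were 0.01 for Cyp6t1 and 0.05 for Cyp6v1.

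Cyp6t3 is known for a part in ecdysone synthesis in the prothoracic gland, a larval organ. In these adults it had 6.48, 4.98 and 7.56% of actin on the METH arrays, against 4.89, 4.37 and 5.76% on the control arrays. The diets overlapped (log2 fold change 0.33, standard error 0.27, adjusted p = 0.57). Cyp6u1 had 28.9, 36.7 and 42.6% in METH-treated flies, against 26.5, 32.7 and 31.3% in control flies, and the diets overlapped as well (log2 fold change 0.24, standard error 0.18, adjusted p = 0.539). With the signals as deposited the direction of both genes turned, to -0.05 for Cyp6t3 and -0.13 for Cyp6u1. The intervals of the 5 genes that did not pass reached from -0.54 to 0.91 on the log2 scale with the actin reference.

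**Figure D2:**
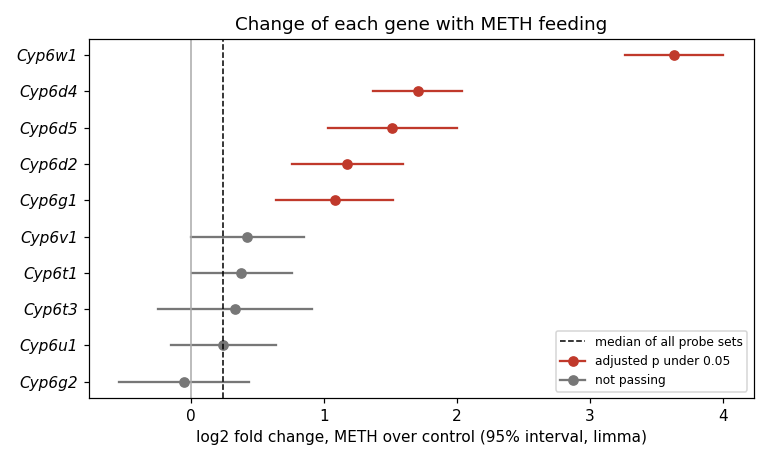
Log2 fold change, METH over control, of each gene with the actin reference (x axis) and its 95% confidence interval from limma; red marks an adjusted p under 0.05, and the dashed line is the median of all probe sets at 0.24. Cyp6w1 stands at 3.63, the other 4 genes in red between 1.08 and 1.71, and the 5 genes in grey between -0.05 and 0.42.

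The choice of yardstick shifts all 10 genes together. The actin probe set was itself lower on the METH arrays (log2 difference of -0.38), so the median of all probe sets was 0.24 with the actin reference and -0.13 with the signals as deposited. Counted from the median probe set with the actin reference, the log2 fold change was 3.39 for Cyp6w1, 1.46 for Cyp6d4, 1.27 for Cyp6d5, 0.93 for Cyp6d2 and 0.84 for Cyp6g1. The other 5 genes lay between -0.29 for Cyp6g2 and 0.18 for Cyp6v1 on that measure. Every METH array was above every control array for 7 genes with the actin reference, where the background is 15.7% of probe sets, and for 5 genes with the deposited signals, where it is 2.61%. In the deposited signals 1 gene, Cyp6g2, was below on every METH array, where the background is 13.6%. The 5 genes higher in limma are the same 5 that were above on every array in the deposited signals. Over the other 4 scalings, log2 fold changes ranged from 3.26 to 3.44 for Cyp6w1, 1.33 to 1.51 for Cyp6d4, 1.14 to 1.32 for Cyp6d5, 0.80 to 0.98 for Cyp6d2 and 0.71 to 0.89 for Cyp6g1. Under each of them 5 genes were higher, except for the deposited signals, under which 4 were.

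**Figure D3:**
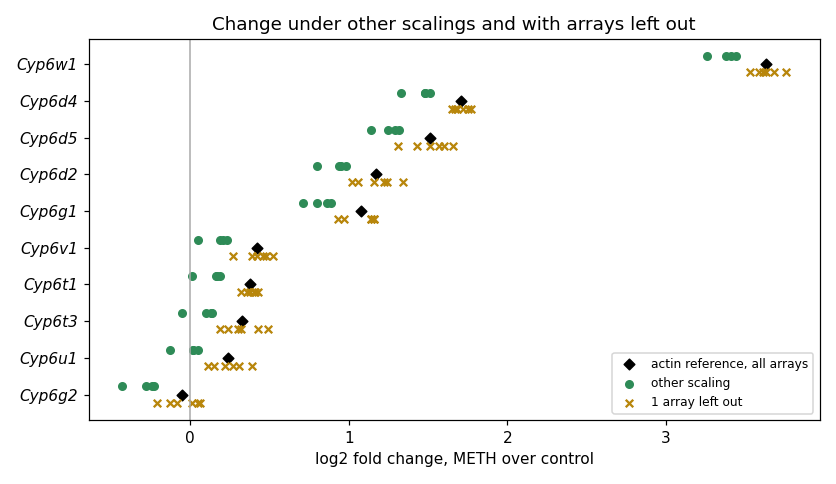
Log2 fold change, METH over control, of each gene (x axis) with the actin reference and all arrays (black), under the 4 other scalings (green) and with 1 array left out (ochre). The green points lie left of the black one for every gene, and the values of Cyp6t3, Cyp6u1 and Cyp6g2 fall on both sides of 0.

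Ratios of 2 probe sets on the same array do not depend on a factor applied to the whole array, and 5 pairs within a subfamily were compared in this way. The ratio of the Cyp6g1 signal to the Cyp6g2 signal was 56.7, 45.9 and 55.6 on the METH arrays, against 24.3, 24.4 and 23.1 on the control arrays. The diets were clearly apart, by 1.13 on the log2 scale with a pooled SD of 0.12, or 2.19-fold. The ratio of Cyp6d4 to Cyp6d2 was 1.49, 1.19 and 1.08 on the METH arrays, against 0.745, 0.965 and 0.887 on the control arrays, and again did not overlap, with a difference of 0.53 and a pooled SD of 0.21. Both pairs reached an exact permutation p of 0.1 (two-sided, adjusted p = 0.25 over the 5 pairs), which is the smallest this test can give with 3 arrays against 3, whatever the size of the difference. The other 3 pairs overlapped between diets. Their differences on the log2 scale were 0.34 for Cyp6d5 over Cyp6d2 (exact permutation p = 0.5), 0.19 for Cyp6d4 over Cyp6d5 (p = 0.5 by the same exact test) and 0.05 for Cyp6t1 over Cyp6t3 (exact permutation p = 0.8).

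**Figure D4:**
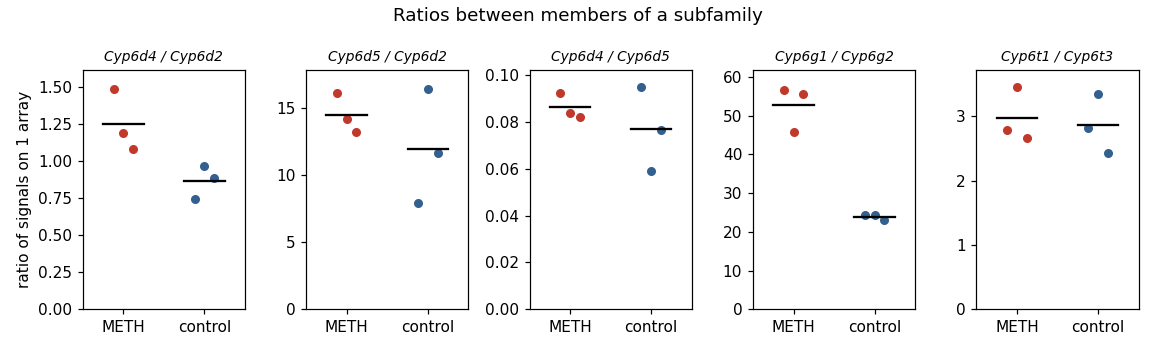
Ratio of the deposited signals of 2 genes of a subfamily on the same array (y axis, linear, from 0), with METH arrays left and control arrays right; points are arrays and lines are means of 3 arrays. The METH and control arrays are apart for Cyp6d4 over Cyp6d2 and for Cyp6g1 over Cyp6g2, where the METH ratios run from 45.9 to 56.7 and the control ratios from 23.1 to 24.4.

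Of the 10 genes, 3 lie side by side in the genome: Cyp6g1, Cyp6g2 and Cyp6t3. By chromosome, 6 lie on chromosome arm 2R, 2 on 3R and 2 on the X chromosome, and the 5 that were higher are 3 of the genes on 2R, both on 3R and 0 of those on X. The nearest genes on each side of the 5 numbered 10. Those of Cyp6w1 are both tRNA genes with 0 probe sets, so no neighbour of Cyp6w1 was measured. Cyp6d5 and Cyp6g1 had a measured neighbour on 1 side only. Of all these neighbours 6 had a probe set. None of these 6 passed the test in limma, 0 had a p under 0.05 even before adjustment and 0 were called by the methods' t-test at p below 0.008. Among them is Cyp6t3, which follows the Cyp6g pair. Of all probe sets, 0.842% were higher and 0.416% lower in limma. With shares this small, 0 of 6 does not set the neighbours apart from other probe sets. Genes from outside the family that overlap one of the 5 in the annotation numbered 2, both measured, and neither passed: nsr, which overlaps Cyp6d2, had a log2 fold change of 0.66 (adjusted p = 0.164 in limma), and rdx, which overlaps Cyp6d5, had 0.44 (adjusted p = 0.513). The strand and exact position of the probes were not analysed here.

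Other genes of the same clan of P450s were counted to place these values. Of 13 measured genes of the Cyp6a subfamily, 5 were higher in METH-treated flies and 0 lower, with a median log2 fold change of 0.72. The largest of these was Cyp6a8, whose change of 3.90 (adjusted p = 4.8e-08) stood near the 3.63 of Cyp6w1, and Cyp6a2, a gene known from insecticide-resistant strains, changed by 2.70. Of 14 measured genes of the other families of the clan, 6 were higher and 0 lower, with a median of 0.50. They were led by Cyp28a5 with 2.37 (adjusted p = 4.4e-06) and Cyp309a1 with 2.46 (adjusted p = 4.5e-06). A difference between these groups and the 10 genes was not tested.

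**Figure D5:**
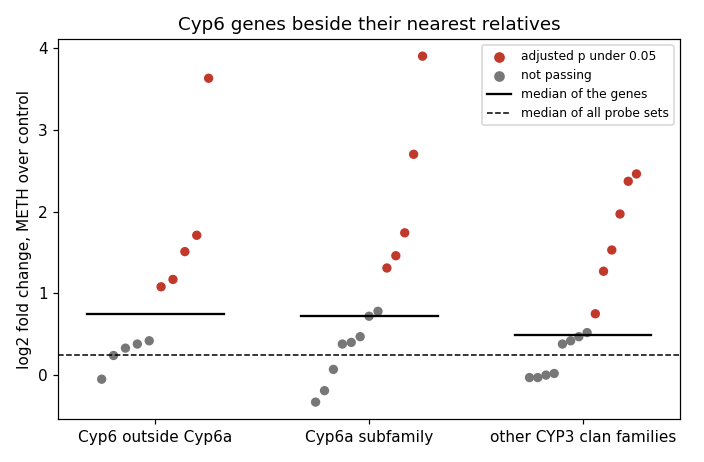
Log2 fold change, METH over control, with the actin reference (y axis) of the 10 Cyp6 genes outside Cyp6a, 13 Cyp6a genes and 14 genes of other families of the clan; points are genes, red where the adjusted p is under 0.05, solid lines are medians (0.75, 0.72 and 0.50) and the dashed line is the median of all probe sets. Each group holds both genes in red and genes near the dashed line.

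Of the proteins that P450s take electrons from, Cyt-b5 (cytochrome b5) was measured and did not pass, since its log2 fold change of 0.64 had a standard error of 0.23 (adjusted p = 0.34). It passed under 1 of the 4 other scalings, quantile normalization, with a change of 0.34 (adjusted p = 0.0391 in limma). Of 6 regulators of the response to foreign compounds, 1 was higher and 0 lower (background 0.842% and 0.416% of all probe sets). It was Keap1, the partner that holds the transcription factor cnc in check, with a change of 1.08 (adjusted p = 0.029), and this call was lost under each of the 4 other scalings and with any 1 array left out. The factor cnc itself (0.33, adjusted p = 0.561) and the nuclear receptor Hr96 (0.05, adjusted p = 0.885) did not pass.

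Markers of the midgut, the Malpighian tubules, the fat body and the testis, which whole males also hold, were summed on each array. Of 5 measured midgut markers 3 were lower and 0 higher (background 0.416% and 0.842% of all probe sets). The median log2 fold change of the list was -1.22. Their summed level was 1022 to 1329% of actin on the METH arrays, against 1021 to 1483% on the control arrays, but most of it was the trypsin alphaTry, which averaged 1106 ± 144% in METH-treated flies and 1009 ± 159% in control flies and did not pass (log2 fold change 0.14, adjusted p = 0.804). The 5 measured midgut markers are all digestive enzymes, so this trait does not set the lower ones apart. The trypsin betaTry did not pass (log2 fold change -1.12, adjusted p = 0.284 in limma). The lower ones were the proteases Jon25Bi (-2.98, adjusted p = 1.5e-05 in limma) and Jon65Ai (-1.38, adjusted p = 0.044), and the lipase mag (-1.22, adjusted p = 0.0178). Their number was 1 without METH replicate 1, METH replicate 2, control replicate 2 or control replicate 3, and 0 when limma's spread was not allowed to follow the level. The 4 measured Malpighian tubule markers summed to 218 to 298% on the METH arrays, against 181 to 244% on the control arrays, and 0 passed. The 5 fat body markers summed to 483 to 576%, against 382 to 479%, and the 6 testis markers to 1852 to 2248%, against 1243 to 1828%, in each case on the METH arrays against the control arrays, with 0 passing. Before adjustment, at a p under 0.05, the midgut list held 4 genes that were lower, and the tubule, fat body and testis lists held 1, 1 and 2 genes that were higher, against the 2.12% and 9.38% of all probe sets given above. On this scale the median of all probe sets is itself 0.24 higher, in log2 units. No marker was listed at 0, but 1 of the fat body markers was among the dimmest 20% of probe sets on at least 1 array. The part of these tissues in the changes of the Cyp6 genes was not tested.

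No gene of the 10 was among the dimmest 20% of probe sets on any array. The lowest signal of the group, 40.3, belonged to Cyp6t3, and on every array the signal of this gene was at least 2.33 times that of a control probe set with no target in the fly. Median signals were 51.7 to 66.1 on the METH arrays and 61.0 to 70.3 on the control arrays, and arrays correlated by rank at 0.968 to 0.975 where they shared the diet and at 0.966 to 0.972 where they did not. The number of arrays, 3 per diet, limits the precision.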

How the data were processed

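RNA from whole flies was labelled and put on Affymetrix arrays of the second Drosophila design, 3 per diet. The authors quantified the images with GCOS (version 1.4, also in the submitters' processing notes), and deposited linear intensities with 1 value for each probe set in each sample. A scaling to a common target is not given in the sources used here. The diet named in the labels set the 2 groups.

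From the log2 of each signal, that of AFFX-Dros-ACTIN_M_r on the same array was subtracted, following the study's methods. All 183 AFFX probe sets were dropped afterwards, and 18769 were tested with no filter, using limma 3.58.1 in R 4.3.3 (lmFit, then eBayes with its trend option, which lets the spread follow the level), two-sided, with Benjamini-Hochberg adjustment over all of them and a threshold of 0.05. The methods name SAM for this step. The limma step was also run on simulated data with independent normal noise. That run did not cover the actin scaling or shifts of a whole array. Intervals are 95% confidence intervals from limma.

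The annotation pairs 13646 probe sets with 1 gene, 402 with several and 4721 with none. Symbols of 13543 probe sets were looked up through gene identifiers in RefSeq's table for assembly Release 6 plus ISO1 MT, which also gave chromosome arms and neighbours. No coordinates are printed, since no build is named for the arrays. All 10 genes are named, with up to 3 genes of smallest adjusted p in each list. Also named, after their values were seen, were overlapping genes, Cyt-b5, cnc, Hr96, alphaTry, betaTry and Cyp6t3 as a neighbour. The members and lists were chosen with earlier results of these data known. Cyp6a15Psi, Cyp9f3Psi, Cpr, Uro, CapaR and lab were not analysed here, nor were promoters, proteins or probe sequences.

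As alternatives, signals were used as deposited, centred on the median or 75th percentile, or quantile normalized; probe sets under the 40th percentile of the mean were dropped; low values were floored at each array's 20th percentile; and limma was run with no trend or with the replicate number as a block. Further ones were the mean over all probe sets of a gene, the methods' t-test (p below 0.008 and more than 1.5-fold, the cut in its results; and, added after seeing the data, p of at most 0.005 and at least 1.5-fold, the cut in its methods) and leaving out each array in turn. Python 3.11.15 with matplotlib 3.10.9 made the plots.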

Additional observations from a re-analysis of the deposited data

How the results depend on the processing

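Each of the 10 genes was recomputed under 17 alternatives. Cyp6w1 and Cyp6d4 kept their direction and passed under all of limma's, with adjusted p = 0.0103 and 0.0468 when the spread was not allowed to follow the level (no trend). Under that setting 2 of the 10 genes were higher, 2 of the Cyp6a genes against 5 with it, and 3 of the other families' genes against 6. The other calls of the group were lost there: Cyp6d5 (adjusted p = 0.13), Cyp6d2 (0.231) and Cyp6g1 (0.233). At the stricter cut of the methods' t-test, 4 of them were higher. Leaving out 1 array gave 4 to 5 of the 10 genes higher. Cyp6g2 then ranged from -0.21 (without control replicate 1) to 0.06, and its direction turned without METH replicate 1 (0.06), control replicate 2 (0.01) and control replicate 3 (0.05). The direction also turned for Cyp6t3 (-0.05) and Cyp6u1 (-0.13) with the signals as deposited. With the replicate block 5 of the 10 genes and 8 of the Cyp6a genes were higher. Whether the replicate numbers pair the samples is not stated. Same-numbered arrays deviated together with r of 0.022, 0.041 and 0.064, and differently numbered ones with r from -0.078 to 0.039. With 3 arrays per diet these values cannot decide the question. Leaving out 1 array moved the difference between Cyp6d5 and Cyp6d2 over 0.07 to 0.60 and that between Cyp6d4 and Cyp6d5 over 0.02 to 0.36. Over all probe sets, 236 passed with the actin reference (158 higher, 78 lower), 24 with no trend, 1293 with the block, 495 with the signals as deposited (114 higher, 381 lower), 300 with median centring (131 and 169), 358 with 75th percentile centring (147 and 211) and 425 with quantile normalization (161 and 264). The cause of these differences was not tested.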
